A study of Mus musculus with 9 samples.

Results

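Hippocampal gene expression was compared between 3 libraries labelled CIE+IL17 Ab and 3 libraries labelled Air+IgG, which together are 6 of the 9 libraries of the study. The groups were taken from the sample titles, and every gene of the deposited table entered the comparison. Air+IgG mice breathed air and received immunoglobulin G (IgG) as the control antibody. CIE+IL17 Ab mice were exposed to CIE, the usual abbreviation of chronic intermittent ethanol, and received an antibody against the cytokine IL-17A. The remaining 3 libraries, CIE+IgG, came from ethanol-exposed mice given IgG. Ethanol exposure and the IL-17A antibody both differed between the groups compared, so their effects cannot be told apart in this contrast. The design text gives 3 mice a group, and the labels do not say whether each library came from a single mouse. The sources used here do not give strain, sex, age, ethanol schedule or antibody dose. All libraries were made from polyadenylated RNA of dissected hippocampus.

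IL-17A is a cytokine of T helper 17 cells and other lymphocytes. It binds a receptor of IL-17RA and IL-17RC, which recruits the adaptor Act1 (gene Traf3ip2) and TRAF6 and activates NF-kB and C/EBP transcription factors. In the brain, astrocytes, microglia and endothelial cells are known to respond to it. The hippocampus is built of the pyramidal fields CA1, CA2 and CA3 and the granule cells of the dentate gyrus, each with its own marker genes. The thalamus and the habenula lie directly beneath it and express other genes, among them the transcription factors Tcf7l2, Lhx9 and Pou4f1 and the nicotinic receptor subunits Chrna3, Chrnb3 and Chrnb4.

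The labelled tissue was checked against region markers, with levels as CPM, counts scaled to library size and normalization factor. The sum of 7 hippocampal markers was 1371, 1684 and 1213 CPM in Air+IgG replicates 1, 2 and 3 and 203, 409 and 753 CPM in CIE+IL17 Ab replicates 1, 2 and 3. The sum of 11 thalamus and habenula markers was 103, 90.6 and 107 CPM in Air+IgG and 908, 1242 and 729 CPM in CIE+IL17 Ab. The hippocampal sum was thus lower in all CIE+IL17 Ab libraries, and the thalamus and habenula sum was higher in all of them. Of the 7 hippocampal markers, Fibcd1 fell, Amigo2 rose and the others did not pass, while all 11 thalamus and habenula markers rose. At most 1 of the 11 thalamus and habenula markers was at 0 in any Air+IgG library and none in CIE+IL17 Ab, and no hippocampal marker was at 0 anywhere. The choroid plexus sum of 5 markers was 3645, 499 and 2323 CPM in Air+IgG and 35.7, 6965 and 5627 CPM in CIE+IL17 Ab, so replicate 1 of the latter stood apart. The 6 libraries held 7372658 to 11894628 estimated counts, and Lars2 took 7.13% of them in Air+IgG replicate 2 and 6.71% in CIE+IL17 Ab replicate 1 but at most 0.0207% in every other library. Library labels carry a number, which is 37 to 39 for 1 library of each group and 54 to 60 for the rest; its meaning is not given.

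**Figure D1:**
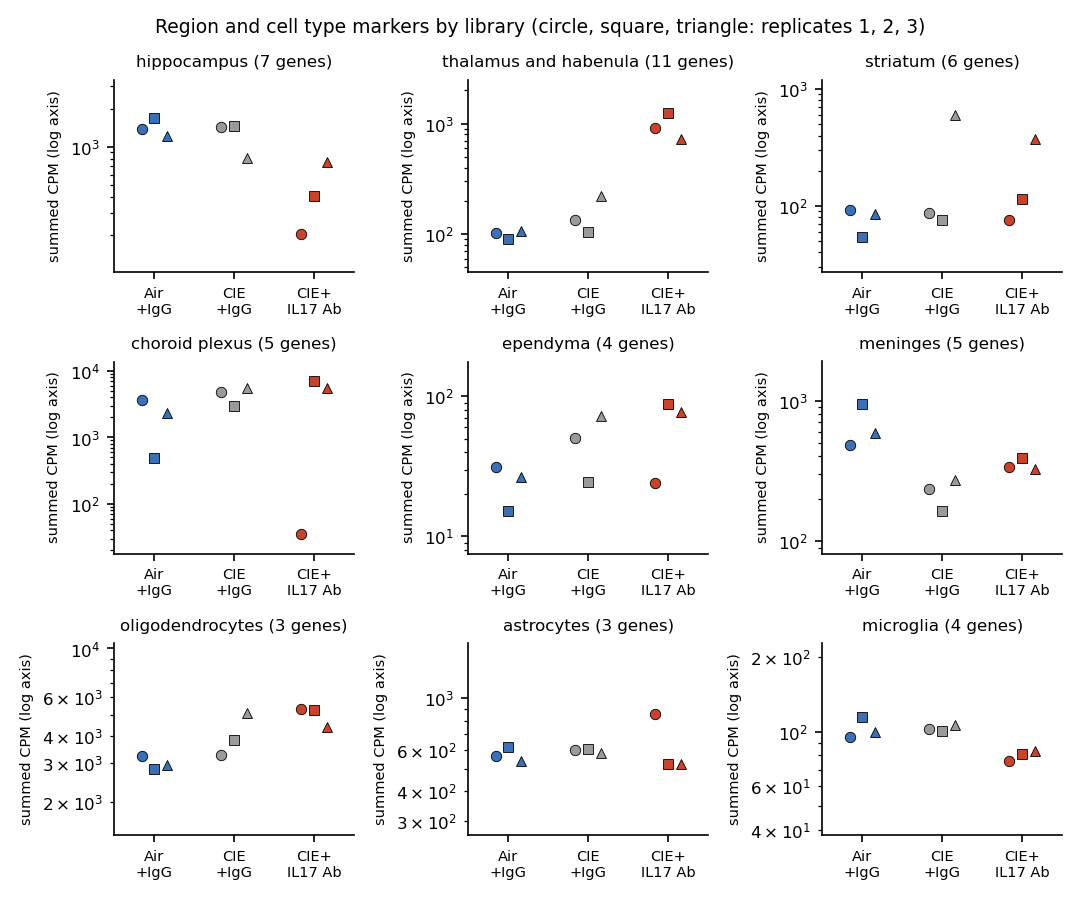
Summed CPM of region and cell type markers (log axes) in each library of the 3 groups, with replicates 1, 2 and 3 as circle, square and triangle. The CIE+IL17 Ab libraries have the lowest hippocampal sums, 203 to 753 CPM, and the highest thalamus and habenula sums, 729 to 1242 CPM.

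Of 14696 genes tested, 1990 (13.5%) differed between CIE+IL17 Ab and Air+IgG at an adjusted p under 0.05 in edgeR. The CIE+IL17 Ab level was higher for 1004 genes (6.83% of those tested) and lower for 986 (6.71%). The change exceeded 2-fold for 417 of the higher and 320 of the lower genes, and the median absolute log2 fold change of the called genes was 0.804. The median log2 fold change of all genes tested was 0.012, and fold changes below are given with SE, the standard error of the fit. For 5193 genes (35.3%) the 3 libraries of one group lay wholly above the 3 of the other, and all but 2 of the 1990 called genes were among them. Separated groups, where described below for a called gene, therefore add no further support to its call. In a whole tissue, fewer cells of a type and less RNA per cell cannot be told apart. The shares of all genes tested, 6.83% higher and 6.71% lower, are the background for every gene list below. The lists and their members were chosen with earlier results of these data known. A share above the background is therefore a description and no independent support. Of 806 list genes, 54 were in more than 1 list, so the counts of different lists are not independent.

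These calls rested on few libraries. Leaving out Air+IgG replicate 1, 2 or 3 gave 478, 336 and 0 calls, and leaving out CIE+IL17 Ab replicate 1, 2 or 3 gave 2249, 218 and 2305. CIE+IgG libraries entered the fit for its estimate of spread, and without CIE+IgG replicate 1 the count was 1122. Without Air+IgG replicate 3, which carries label number 37, 3911 genes kept an unadjusted p under 0.05 and the smallest adjusted p was 0.0537; edgeR alone was run there. Leaving out both libraries numbered 37 and 38, together with the CIE+IgG library numbered 39, left 2 calls, Tcf7l2 and Slitrk6. Without each library other than Air+IgG replicate 3, 183 genes kept their call, 130 of them higher and 53 lower. Leaving out both Lars2-rich libraries left 1067 calls, of which 711 were among the 1990. CIE+IgG against the same Air+IgG libraries gave 0 called genes (0%) in edgeR, with a smallest adjusted p of 0.791 and 406 genes at an unadjusted p under 0.05; that contrast was not run with another tool. Both contrasts share the Air+IgG libraries.

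**Figure D2:**
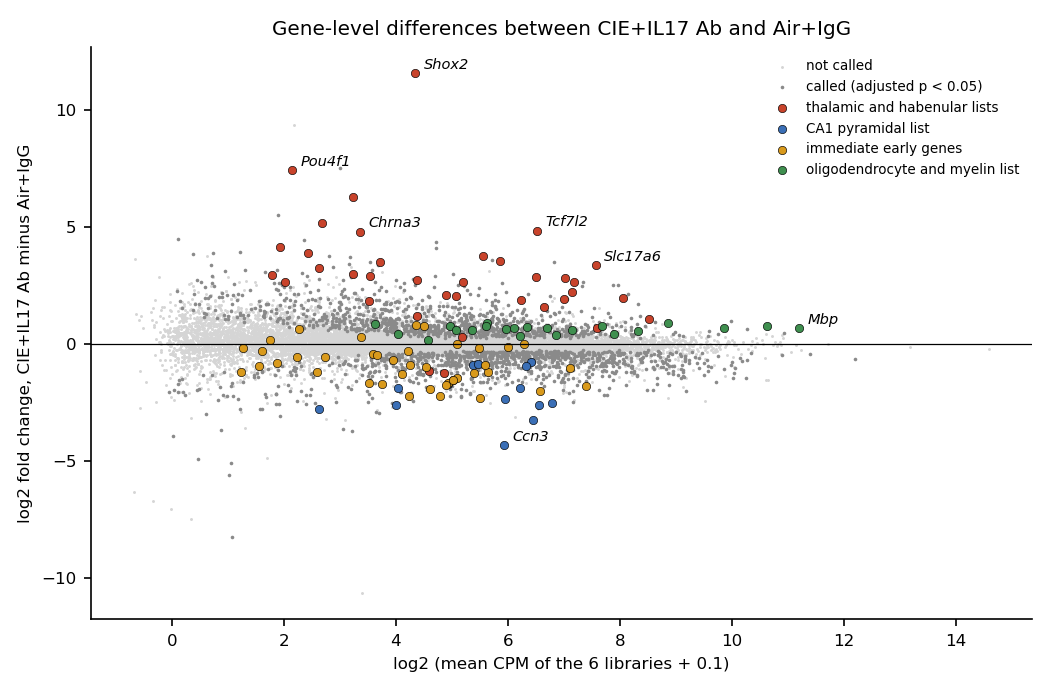
Each point is a gene, with its mean level over the 6 libraries on the x axis (log2 CPM plus 0.1) and its fitted log2 fold change, CIE+IL17 Ab minus Air+IgG, on the y axis. Thalamic and habenular genes (red) lie mostly far above 0, the 14 CA1 genes (blue) all lie below it, and the 22 oligodendrocyte genes (green) all lie above it; the height of Shox2, with no count in Air+IgG, depends on the prior count of the fit.

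Transcription factors that define thalamic and habenular neurons were among the largest rises. Of 13 such factors tested, 9 rose and 1 fell, beside 6.83% and 6.71% of all genes tested, with a median log2 fold change of 2.64. Tcf7l2, a Wnt-pathway transcription factor that specifies thalamic and habenular neurons (chr19:55741820-55933654, GRCm38), had 176, 231 and 126 CPM in CIE+IL17 Ab and 6.39, 6.86 and 5.3 CPM in Air+IgG. Every CIE+IL17 Ab library was well above every Air+IgG library, a log2 fold change of 4.85 (SE 0.60, adjusted p = 0.0105), and in CIE+IgG the levels were 5.58, 6.55 and 27 CPM, with replicate 3 above the Air+IgG range. Tcf7l2 was also called among the libraries numbered 54 to 60. Shox2, a homeobox factor of thalamic relay neurons (chr3:66971727-66981771), had 0 counts in all Air+IgG libraries and 1203 counts in CIE+IL17 Ab. Against a floor of 3 counts over the Air+IgG group it was at least 371-fold higher, with 47.4, 48 and 26.3 CPM in CIE+IL17 Ab. In CIE+IgG, Shox2 was at 0, 0 and 8.11 CPM. Its edgeR call (adjusted p = 0.0306) was lost without any 1 Air+IgG library and without CIE+IL17 Ab replicate 2. The gene was also not called with replicate number as a block, in DESeq2 or without both Lars2-rich libraries. Pou4f1, the Brn3a factor of medial habenular neurons (chr14:104461676-104467999), had 247 counts against 1 in Air+IgG, a ratio of 228 with a 95% exact interval of 40.6 to 9050 that covers counting error only. Its levels were 11.4, 8.77 and 5.59 CPM in CIE+IL17 Ab and 0, 0 and 0.0932 CPM in CIE+IgG. Lef1, the Wnt effector related to Tcf7l2, stood at 47.8, 87.4 and 54.3 CPM against 13.1, 9.01 and 8.43 CPM, and Foxp2, a forkhead factor of thalamic and striatal neurons, at 110.4, 95.5 and 57.2 against 4.98, 4.57 and 9.47 CPM. Both sets of libraries were fully separated, with log2 fold changes of 2.64 and 3.76. In CIE+IgG, Foxp2 was at 4.83, 4.56 and 37.9 CPM. Rora, Lhx9, Six3 and Tshz1 rose as well, while Lhx2, which is expressed in cortical and hippocampal progenitors and their neurons, fell by 1.24 on the log2 scale. Six3 and Tshz1 each kept the call in only 2 of the fits that left out 1 library. Of this list, 5, 5 and 0 members rose once Air+IgG replicate 1, 2 or 3 was omitted, and 10, 5 and 7 members rose once CIE+IL17 Ab replicate 1, 2 or 3 was.

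Receptors, peptides and surface proteins of the same regions moved in the same direction. Of 24 tested, 20 rose and 1 fell (87.5% called, against 13.5% of all genes tested), with a median log2 fold change of 2.84. The nicotinic receptor subunit genes Chrna3 (chr9:55010111-55026562) and Chrnb4 (chr9:55028154-55048779) are neighbours on the minus strand of chromosome 9, and their products form the receptor of the medial habenula. Chrna3 had 20.6, 21.8 and 16.9 CPM in CIE+IL17 Ab and 1.08, 0.269 and 0.663 CPM in Air+IgG, and Chrnb4 had 7.23, 16.2 and 13.4 against 0.325, 0.403 and 0.284 CPM. Neither gene reached 2 CPM in any Air+IgG library, and the log2 fold changes were 4.81 (SE 0.35, adjusted p = 0.00318) and 5.16 (SE 0.67, adjusted p = 0.0105). Slc17a6, the vesicular glutamate transporter VGLUT2 of thalamic neurons, had 483, 389.8 and 166 CPM against 37.6, 19 and 41.7 CPM. All CIE+IL17 Ab libraries were higher, replicate 1 most and replicate 3 least, a log2 fold change of 3.39 (SE 0.46, adjusted p = 0.0105). Glra1, the α1 subunit of the glycine receptor, showed the same order of replicates, 35.2, 14 and 5.8 CPM against 0.325, 0.269 and 0.0947 CPM. Gpr151, an orphan receptor of habenular axons, had 14.9, 35.5 and 21.6 against 1.63, 2.29 and 2.46 CPM, and Tac2, the neurokinin B precursor, had 10.1, 22.9 and 16.5 against 2.38, 1.21 and 2.46 CPM. For both, replicate 2 was the highest CIE+IL17 Ab library. Calb2, the calcium-binding protein calretinin, rose by 2.85, although its Air+IgG levels ranged widely, 32.8, 5.51 and 27.3 CPM. The serotonin receptor gene Htr4 was the member that fell, by 1.14. When Air+IgG replicate 1, 2 or 3 was omitted, 11, 11 and 0 members rose, and when CIE+IL17 Ab replicate 1, 2 or 3 was omitted, 20, 14 and 19 members rose. Without both Lars2-rich libraries, 18 rose. In CIE+IgG the median log2 fold changes against Air+IgG were 0.21 for the transcription factors and 0.22 for this list. All 11 region markers belong to these lists, so the marker sum is not a separate measurement.

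Genes of the hippocampal fields differed by field. All 14 CA1 pyramidal genes had a log2 fold change below 0, with a median of -2.11. Of these, 6 fell (42.9%, against 6.71% of all genes tested). Ccn3, a secreted matrix-associated protein (chr15:54745702-54754039), had 4.17, 2.74 and 10.9 CPM in CIE+IL17 Ab and 146, 57.4 and 146 CPM in Air+IgG. The groups were far apart although Air+IgG replicate 2 was the lowest control, and the level fell by 4.31 on the log2 scale (SE 0.54, adjusted p = 0.0105). In CIE+IgG, Ccn3 was at 54.1, 78.9 and 64.5 CPM, above every CIE+IL17 Ab library and around the level of Air+IgG replicate 2. Fibcd1, a transmembrane acetyl-group receptor used as a CA1 marker, had 33.1, 22.9 and 39.2 CPM against 111, 129 and 107 CPM and fell by 1.87 (SE 0.26, adjusted p = 0.0105). Mpped1, a phosphoesterase-domain gene of cortical and CA1 neurons, had 36.7, 17.2 and 45.5 against 203, 153 and 210.1 CPM. For all 3 genes, CIE+IL17 Ab replicate 2 was the lowest library and replicate 3 the highest of its group. Wfs1, the wolframin gene and another CA1 marker, had a log2 fold change of -0.95 that did not pass (adjusted p = 0.0858). Omitting Air+IgG replicate 1, 2 or 3 in the fit gave a list in which 3, 3 and 0 members fell, and omitting CIE+IL17 Ab replicate 1, 2 or 3 a list in which 7, 3 and 12 members fell.

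Among 19 genes of CA2 and CA3, 4 rose and 5 fell (47.4% called, against 13.5% of all genes tested). The median log2 fold change was -0.32. Members that rose included Pcp4, a Purkinje cell protein gene of CA2 that thalamic neurons also express, at 147, 191 and 182 against 71.7, 57.6 and 72.6 CPM, and Cpne9, a copine, at 59.9, 102 and 63 against 13.3, 17.8 and 11.6 CPM. Chgb, the secretory granule protein chromogranin B, fell by 1.08, from 438, 541 and 470.5 CPM in Air+IgG to 218, 188 and 280.1 CPM. In this list, members were therefore split in direction, unlike the CA1 list where none lay above 0. With Air+IgG replicate 1, 2 or 3 left out, 1, 1 and 0 members rose and 1, 1 and 0 fell, and with CIE+IL17 Ab replicate 1, 2 or 3 left out, 3, 1 and 3 members rose and 3, 0 and 7 fell. Of 18 dentate gyrus genes, all lay below 0 with a median of -0.69, but 0 passed in edgeR, 5 had an unadjusted p under 0.05, and DESeq2 and limma-voom called 3 and 1 lower. Prox1, the homeobox factor of granule cells, had 50.7, 159 and 167 CPM in CIE+IL17 Ab and 135, 265 and 122 CPM in Air+IgG, groups that overlapped. Its log2 fold change was -0.46, and 0.34 once both Lars2-rich libraries were left out. The dentate gyrus genes summed to 2001, 3618 and 1855 CPM in the controls, in replicate order. In CIE+IL17 Ab they summed to 920, 1576 and 2122 CPM. The highest and the lowest sum were those of the Lars2-rich libraries, and the sums of the remaining libraries overlapped between the groups. Whether those libraries account for the lower median was not tested. Without CIE+IL17 Ab replicate 3, 5 dentate gyrus genes were called lower. The hippocampal marker sums given above moved with these groups, and their part in the result was not tested. Fibcd1 and Amigo2 are in both the marker sum and these lists, so the sum is not a separate measurement.

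**Figure D3:**
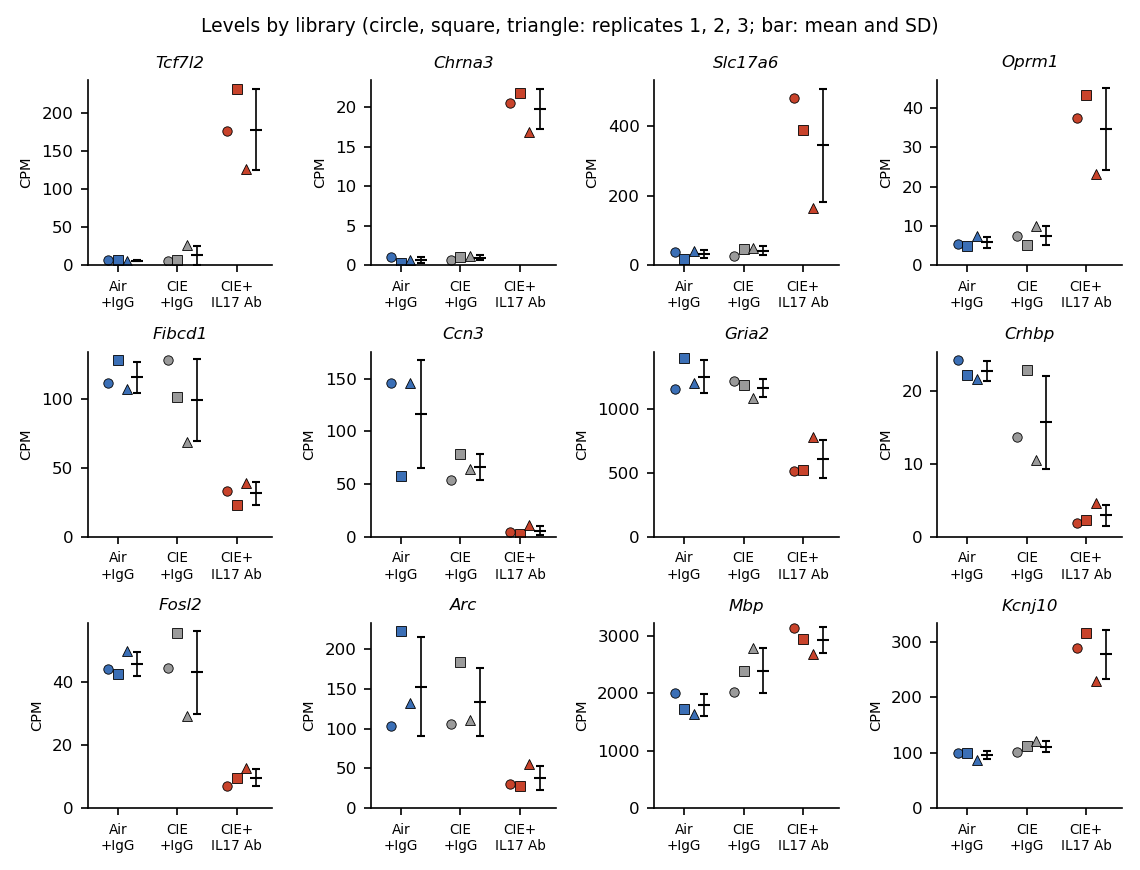
CPM of 12 genes in each library of the 3 groups, with the mean and SD beside the points. Tcf7l2, Chrna3, Slc17a6, Oprm1, Mbp and Kcnj10 are higher and Fibcd1, Ccn3, Gria2, Crhbp, Fosl2 and Arc are lower in each of the 3 CIE+IL17 Ab libraries than anywhere in Air+IgG.

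Immediate early genes, which neurons transcribe within minutes of synaptic activity, were mostly lower. Of 40 tested, 18 fell and 1 rose (47.5% called, against 13.5% of all genes tested). In this list 34 lay below 0, and the median log2 fold change was -0.93. The median in CIE+IgG was -0.20. Fosl2, an AP-1 subunit (chr5:32135801-32157842), had 7.09, 9.47 and 12.7 CPM in CIE+IL17 Ab and 44.1, 42.6 and 49.8 CPM in Air+IgG. No library of the antibody group came near the controls, and Fosl2 fell by 2.21 on the log2 scale (SE 0.26, adjusted p = 0.00985). Klf10, a zinc-finger repressor induced by growth factors, had 8.34, 7.83 and 14.5 CPM against 32.7, 44.6 and 36.9 CPM and fell by 1.9 (SE 0.22, adjusted p = 0.00985). Arc, the synaptic capsid-like protein that drives AMPA receptor endocytosis, had 29.9, 28.2 and 55.8 against 103, 222 and 132 CPM. The 3 CIE+IL17 Ab libraries were all below the Air+IgG range for these genes, and Arc fell by 2.01 (SE 0.38, adjusted p = 0.0176). Bdnf, the neurotrophin, had 21.5, 13.7 and 20.4 CPM against 36.1, 69.8 and 43.3 CPM, and Homer1, a postsynaptic scaffold, had 76.6, 77.6 and 121 against 165, 198 and 189.8 CPM. Dusp6, a phosphatase that switches off ERK, had 22, 32.2 and 35.7 against 60.9, 86.1 and 61.3 CPM. The levels fell by 1.43, 1.01 and 1.21 in that order. Ptgs2, the inducible cyclooxygenase, fell by 2.22 with an adjusted p of 0.0488; its CIE+IL17 Ab levels were uneven, 1.81, 3.37 and 14.6 CPM against 23.9, 42.6 and 26.3 CPM, and without CIE+IL17 Ab replicate 3 the log2 fold change was -3.51. Jun, Junb, Egr1, Egr2, Nr4a1, Nr4a3, Btg2, Dusp5, Gadd45b, Ier5 and Plk2 fell as well. Fos itself did not pass, with 17.1, 10.4 and 8.12 CPM in CIE+IL17 Ab and 15.9, 19.9 and 20.2 CPM in Air+IgG. Nptx2, a neuronal pentraxin, rose by 0.78 (adjusted p = 0.0483), although its groups overlapped, at 21.4, 35.1 and 28.8 against 15.2, 21.7 and 13.2 CPM. Of this list, 8, 3 and 0 members fell once Air+IgG replicate 1, 2 or 3 was omitted, and 14, 2 and 22 members fell once CIE+IL17 Ab replicate 1, 2 or 3 was. Without both Lars2-rich libraries, 4 fell. The marker sums of both regions moved with these genes, and their part was not tested.

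Promoter sequences of the immediate early genes that fell are shown because cyclic AMP response elements and CArG boxes, bound by CREB and by serum response factor, are the known activity-dependent elements of this class. RefSeq windows of 300 bases (250 before to 50 after the start, GRCm38.p6) were matched by symbol for 15 of the 18 genes. The full element TGACGTCA was in 2 of these 15 genes (13.3%), against 385 of 11278 tested genes with a window (3.41%). Its core TGACG, on either strand and contained in the full element, was in 10 of 15 (66.7%), against 33.8%. A CArG box, searched by its consensus on both strands, was in 2 of 15 (13.3%), against 1.6%. A gene counted when any of its windows held the motif, and Bdnf has 7 windows, Egr2 5 and Homer1 2, which gives these genes more room for a match. The windows below run 5′ to 3′ on the gene's strand, with the elements searched in capitals. Btg2 (chr1:134079106-134079405, minus strand) holds the full element with its first base 166 bases before the start. Plk2 (chr13:110394794-110395093, plus strand) holds it 62 bases before the start, with a core on the other strand after it. Dusp5 (chr19:53528895-53529194, plus strand) holds 2 CArG boxes that run on from each other and 1 core. Egr2 (chr10:67537619-67537918, plus strand, the window printed of its 5) holds a core, a CArG box and a core on the other strand. A match describes letters in a window and shows no binding.
Btg2: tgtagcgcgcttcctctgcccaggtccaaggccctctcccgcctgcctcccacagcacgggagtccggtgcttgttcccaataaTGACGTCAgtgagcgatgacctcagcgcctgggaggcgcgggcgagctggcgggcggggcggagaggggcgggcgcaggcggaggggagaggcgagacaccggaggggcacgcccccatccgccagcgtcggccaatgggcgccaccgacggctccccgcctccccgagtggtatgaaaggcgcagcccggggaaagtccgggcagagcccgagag
Plk2: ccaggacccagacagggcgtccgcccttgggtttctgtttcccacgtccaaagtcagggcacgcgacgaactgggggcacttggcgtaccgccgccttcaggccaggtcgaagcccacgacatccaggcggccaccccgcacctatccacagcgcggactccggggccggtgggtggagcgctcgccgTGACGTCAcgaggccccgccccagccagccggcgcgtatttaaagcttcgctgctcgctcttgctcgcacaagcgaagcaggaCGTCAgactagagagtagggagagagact
Dusp5: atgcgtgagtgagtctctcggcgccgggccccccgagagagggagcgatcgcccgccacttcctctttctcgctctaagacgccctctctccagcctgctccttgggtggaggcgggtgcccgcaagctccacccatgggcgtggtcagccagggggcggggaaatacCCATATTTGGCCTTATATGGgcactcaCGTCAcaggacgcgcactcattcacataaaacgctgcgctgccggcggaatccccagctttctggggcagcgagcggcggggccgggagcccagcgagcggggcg
Egr2: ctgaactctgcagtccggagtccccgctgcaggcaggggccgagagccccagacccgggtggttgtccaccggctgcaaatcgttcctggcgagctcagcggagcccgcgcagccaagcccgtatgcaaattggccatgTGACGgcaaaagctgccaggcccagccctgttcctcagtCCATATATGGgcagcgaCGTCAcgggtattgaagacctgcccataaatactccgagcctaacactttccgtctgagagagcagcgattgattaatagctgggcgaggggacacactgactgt

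Glutamate receptor genes moved in both directions. Marker sums of both regions moved with the receptor, channel, peptide and interneuron genes described from here on, and their part was not tested. Of 15 AMPA and kainate receptor subunits and auxiliary proteins, 3 rose and 5 fell (53.3% called, against 13.5% of all genes tested). Gria2, the subunit that sets the calcium permeability of AMPA receptors, had 518, 528 and 785 CPM in CIE+IL17 Ab and 1156, 1406 and 1209 CPM in Air+IgG. The groups were separated, and Gria2 fell by 1.04 on the log2 scale (SE 0.17, adjusted p = 0.0127). Gria1, Gria3, the kainate receptor gene Grik4 and the auxiliary subunit gene Cacng3 fell by 1.04, 0.76, 0.96 and 0.89, while the auxiliary subunit genes Cacng2, Cacng4 and Cacng5 rose by 0.51, 1.59 and 1.57. When Air+IgG replicate 1, 2 or 3 was omitted, 0, 0 and 0 members rose and 1, 1 and 0 fell, and when CIE+IL17 Ab replicate 1, 2 or 3 was omitted, 3, 0 and 2 members rose and 3, 0 and 8 fell. Among 6 NMDA receptor subunits, 1 rose and 1 fell (33.3% called, against 13.5% of all genes tested). Grin2a fell from 542, 824 and 484 to 145, 139 and 285 CPM, a change of -1.7 (SE 0.37, adjusted p = 0.0254). Grin2d, a subunit of diencephalic neurons and interneurons, rose from 6.39, 4.17 and 4.83 to 23.6, 37.6 and 23.8 CPM, a change of 2.46 (SE 0.33, adjusted p = 0.0105). Grin2b, with a log2 fold change of -1.11, missed the threshold (adjusted p = 0.059). Of 7 metabotropic receptors, 1 rose and 1 fell (28.6% called, against 13.5% of all genes tested). The presynaptic receptor gene Grm4 rose by 2.15 and Grm5, the postsynaptic Gq-coupled receptor, fell by 0.67. Grin2a lost its call without any 1 Air+IgG library and without CIE+IL17 Ab replicates 1 or 2, while Grin2d lost it only without Air+IgG replicate 3.

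Inhibitory receptor genes also moved in both directions. Of 19 GABA-A and glycine receptor subunits, 3 rose and 3 fell (31.6% called, against 13.5% of all genes tested). Gabra5, the α5 subunit that is enriched in hippocampal pyramidal cells, had 53.8, 33.2 and 84.3 CPM in CIE+IL17 Ab and 209.98, 268 and 207 CPM in Air+IgG. All CIE+IL17 Ab libraries were lower, replicate 3 least so, and Gabra5 fell by 2.0 (SE 0.35, adjusted p = 0.0143). Gabra2 fell by 0.71, and Gabrq, Gabrr2 and Glra1 rose by 3.77, 1.49 and 6.27. Omitting Air+IgG replicate 1, 2 or 3 in the fit gave a list in which 0, 0 and 0 members rose and 2, 1 and 0 fell, and omitting CIE+IL17 Ab replicate 1, 2 or 3 a list in which 3, 0 and 4 members rose and 4, 1 and 4 fell.

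Of 28 potassium, HCN and T-type calcium channel genes, 7 rose and 5 fell (42.9% called, against 13.5% of all genes tested). The median log2 fold change was -0.10. Hcn4, the slow pacemaker channel of thalamic neurons, had 13.1, 20.3 and 14.9 CPM in CIE+IL17 Ab and 1.63, 1.75 and 1.14 CPM in Air+IgG. The ranges were far apart, and Hcn4 rose by 3.43 (SE 0.40, adjusted p = 0.00985). Cacna1g, the T-type channel Cav3.1 that underlies thalamic burst firing, had 149.8, 277 and 178 against 60.02, 37.9 and 62.5 CPM and rose by 1.91 (SE 0.28, adjusted p = 0.0119). Hcn2, Hcn3, Kcnj5, Kcnc1 and Kcnc2 rose by 0.97, 1.04, 3.03, 0.57 and 0.71. The M-current genes Kcnq3 and Kcnq5, the GIRK gene Kcnj3 and the SK gene Kcnn2 fell by 0.91, 1.24, 0.93 and 0.80. Kcnma1, the BK channel gene and a known ethanol target, had a log2 fold change of -0.066 (adjusted p = 0.831), and its sign turned without CIE+IL17 Ab replicate 1, to 0.11. With Air+IgG replicate 1, 2 or 3 left out, 4, 5 and 0 members rose and 0, 1 and 0 fell, and with CIE+IL17 Ab replicate 1, 2 or 3 left out, 8, 4 and 7 members rose and 4, 0 and 6 fell.

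**Figure D4:**
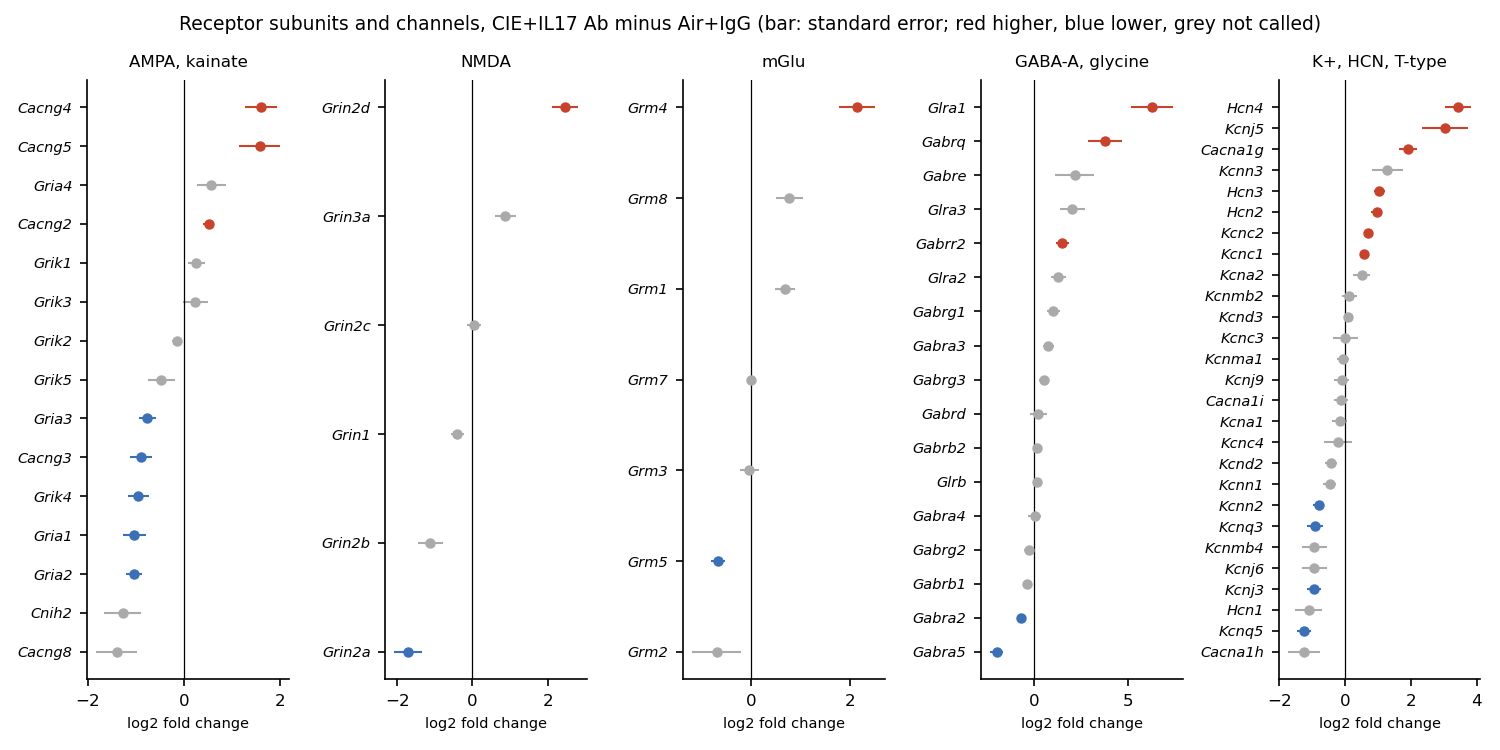
Fitted log2 fold change (CIE+IL17 Ab minus Air+IgG, x axis) of members of 5 receptor and channel families, with bars for the standard error; red members rose, blue fell and grey did not pass. Each family shown holds members on both sides of 0, from Gabra5 at -2.0 to Glra1 at 6.27 among GABA-A and glycine receptors.

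Genes of peptide, cannabinoid and stress signalling also changed. Of 33 tested, 4 rose and 7 fell (33.3% called, against 13.5% of all genes tested). Oprm1, the μ-opioid receptor, which is dense in the habenula and thalamus, had 37.4, 43.4 and 23.1 CPM in CIE+IL17 Ab and 5.31, 4.84 and 7.48 CPM in Air+IgG. The lowest CIE+IL17 Ab library was above the highest control, and Oprm1 rose by 2.55 (SE 0.31, adjusted p = 0.010). Crhbp, which binds and buffers the stress hormone CRH, had 1.95, 2.27 and 4.64 against 24.3, 22.2 and 21.7 CPM and fell by 2.93 (SE 0.37, adjusted p = 0.0104). In CIE+IgG, Crhbp was at 13.7, 22.8 and 10.5 CPM. Cnr1, the CB1 cannabinoid receptor, had 159, 99.9 and 164 against 349, 289 and 335 CPM and fell by 1.21 (SE 0.19, adjusted p = 0.012), and Faah, which degrades anandamide, fell by 1.41. Oprm1, Crhbp and Cnr1 kept their calls without each library except Air+IgG replicate 3. Tacr1 and Galr1, receptors of substance P and galanin, and the peptide gene Adcyap1 rose by 3.3, 2.61 and 1.9. Npy and its receptors Npy1r and Npy2r fell by 1.51, 1.14 and 2.24. Nr3c2, the mineralocorticoid receptor, fell by 1.53. The glucocorticoid receptor gene Nr3c1 had a log2 fold change of -0.033 (adjusted p = 0.884). Of this list, 1, 1 and 0 members rose and 2, 2 and 0 fell once Air+IgG replicate 1, 2 or 3 was omitted, and 4, 1 and 4 members rose and 5, 3 and 9 fell once CIE+IL17 Ab replicate 1, 2 or 3 was.

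Of 22 monoamine receptor genes, 2 rose and 6 fell (36.4% called, against 13.5% of all genes tested). Adra1b, the α1B adrenergic receptor, had 9.73, 17.7 and 11.5 CPM in CIE+IL17 Ab and 2.17, 3.09 and 3.6 CPM in Air+IgG and rose by 2.14 (SE 0.30, adjusted p = 0.0105). Htr1a, an inhibitory serotonin receptor of pyramidal and granule cells, had 23.8, 9.24 and 19.8 against 41.8, 42.4 and 40.1 CPM and fell by 1.25 (SE 0.30, adjusted p = 0.0329). Receptors of the same ligand thus moved apart, since Htr7 rose by 1.5 and Htr3a and Htr4 fell by 2.16 and 1.14. Adra1d, Adra2c and Drd5 fell by 2.45, 1.14 and 1.0. When Air+IgG replicate 1, 2 or 3 was omitted, 1, 1 and 0 members rose and 0, 0 and 0 fell, and when CIE+IL17 Ab replicate 1, 2 or 3 was omitted, 2, 1 and 2 members rose and 4, 2 and 6 fell.

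Of 21 inhibitory interneuron genes, 6 fell and Calb2 rose (33.3% called, against 13.5% of all genes tested). Gad1, the enzyme that makes GABA, had a log2 fold change of 0.0034 and Gad2 of 0.87, neither passing. Sst, somatostatin, had 43.6, 23.3 and 44 CPM in CIE+IL17 Ab and 102, 79.5 and 94.4 CPM in Air+IgG. Cck, cholecystokinin, had 36.3, 58.1 and 75.7 against 168, 185 and 156 CPM. Both peptides were lower in all CIE+IL17 Ab libraries and fell by 1.32 and 1.58, as did Npy, Lamp5, Htr3a and Cnr1. Omitting Air+IgG replicate 1, 2 or 3 in the fit gave a list in which 1, 2 and 0 members fell, and omitting CIE+IL17 Ab replicate 1, 2 or 3 a list in which 9, 3 and 7 members fell.

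Myelin genes of mature oligodendrocytes were higher. All 22 tested lay above 0, and 16 rose (72.7%, against 6.83% of all genes tested). The median log2 fold change was 0.69. In CIE+IgG it was 0.38 against the same controls, with no call. Mbp, myelin basic protein, had 3128, 2953 and 2683 CPM in CIE+IL17 Ab and 2013, 1724 and 1645 CPM in Air+IgG. Its groups did not overlap, and Mbp rose by 0.70 (SE 0.14, adjusted p = 0.0191). The lineage transcription factors Olig1 and Sox10 rose by 0.66 and 0.61, and Olig1 and the sphingolipid hydroxylase gene Fa2h kept their calls without each library except Air+IgG replicate 3. With Air+IgG replicate 1, 2 or 3 left out, 5, 2 and 0 members rose, and with CIE+IL17 Ab replicate 1, 2 or 3 left out, 12, 2 and 17 members rose. Without both Lars2-rich libraries, 3 rose. Of 14 precursor-cell genes, 2 rose and 0 fell (14.3% called), beside 13.5% of all genes tested called and 6.83% called higher. The 2 were Olig1 and Bcas1, the latter a gene of myelinating cells. Between CIE+IL17 Ab and Air+IgG, the thalamus and habenula marker sums moved with the myelin genes, and their part was not tested. In CIE+IgG replicates 1, 2 and 3, the oligodendrocyte marker sums were 3281, 3849 and 5074 CPM. The thalamus and habenula sums there were 133, 105 and 220 CPM.

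Of 18 astrocyte genes tested, 6 rose and 1 fell (38.9% called, against 13.5% of all genes tested). Those that rose were Kcnj10, Slc6a11, Atp1b2, the amino acid transporter gene Slc7a10, the angiotensinogen gene Agt and Itih3. Kcnj10, the Kir4.1 channel that clears potassium, had 289, 316 and 229 CPM in CIE+IL17 Ab and 100.1, 99.8 and 87.3 CPM in Air+IgG. Its libraries were tight within each group, and Kcnj10 rose by 1.54 (SE 0.13, adjusted p = 0.00607). Slc6a11, the GABA transporter GAT3, had 709, 402 and 267 against 116, 88.1 and 110.05 CPM, and Atp1b2, a sodium pump subunit, had 522, 417 and 386 against 274, 266 and 232 CPM. They rose by 2.13 and 0.78. Slc1a2, the main glutamate transporter GLT-1, fell from 5633, 5916 and 5755 to 3528, 3224 and 4257 CPM, a log2 fold change of -0.65 (SE 0.13, adjusted p = 0.0185). Gfap, the intermediate filament of reactive astrocytes, had a log2 fold change of -0.39 (adjusted p = 0.0946). Of this list, 4, 2 and 0 members rose once Air+IgG replicate 1, 2 or 3 was omitted, and 7, 3 and 8 members rose once CIE+IL17 Ab replicate 1, 2 or 3 was. Of 19 reactive astrocyte genes, only Serpina3n passed in edgeR, and it fell by 0.88, from 35.9, 44.9 and 34.5 to 21.1, 16.7 and 24.9 CPM. Summed markers of astrocytes were 565, 619 and 537 CPM in Air+IgG and 859, 521 and 524 CPM in CIE+IL17 Ab, overlapping ranges.

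Genes of the IL-17 pathway, the target of the antibody, gave 1 edgeR call. Of 22 receptor and signalling genes, 0 passed in edgeR or limma-voom and 1 in DESeq2, with 6 at an unadjusted p under 0.05; the median log2 fold change was -0.049. Il17ra, the common receptor subunit, had 8.2, 10.1 and 10.3 CPM in CIE+IL17 Ab and 13.2, 10.5 and 10.8 CPM in Air+IgG, and the groups did not overlap, yet the difference did not pass (log2 fold change -0.26, SE 0.16, adjusted p = 0.296). Il17rc, the partner subunit, had 4.17, 4.85 and 4.85 against 4.33, 2.96 and 2.75 CPM, and Traf3ip2, the adaptor Act1, had 13.8, 14.1 and 14.5 against 12.4, 14.5 and 13.2 CPM, with overlapping libraries in both. Of 10 IL-17 target genes that were tested, Ptgs2 fell (10%, against 6.71% of all genes tested). Nfkbiz, the inhibitor-like factor that IL-17A induces, had 4.73, 5.79 and 10.2 CPM against 13.8, 12.1 and 12.4 CPM and just missed the threshold (log2 fold change -0.88, SE 0.25, adjusted p = 0.0514). Tnfaip3, the ubiquitin-editing enzyme A20 that ends NF-kB signalling, had a log2 fold change of -0.79 (adjusted p = 0.0843). The Ptgs2 call was lost in every fit that left out 1 library, other than CIE+IL17 Ab replicate 3. The genes of IL-17A, IL-17F, Lcn2, Cxcl1, Ccl2 and Il6 were not analysed here.

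Apart from microglia genes, the other inflammatory lists gave at most 1 edgeR call each. Of 19 NF-kB subunits and regulators, 0 passed in edgeR, 5 had an unadjusted p under 0.05, and DESeq2 and limma-voom each called 1. Of 28 interferon response and MHC class I genes, 0 passed in edgeR, DESeq2 or limma-voom, with 1 at an unadjusted p under 0.05. Of 17 complement genes, 0 passed in edgeR, 3 had an unadjusted p under 0.05, and DESeq2 and limma-voom each called 1. Il34, a ligand of the microglial receptor CSF1R, was the only one of 18 cytokine, chemokine and receptor genes to pass in edgeR, falling from 24.8, 24.1 and 23.3 to 17.8, 9.78 and 12.8 CPM (log2 fold change -0.85, SE 0.19, adjusted p = 0.0246). The call was lost without any 1 Air+IgG library and without CIE+IL17 Ab replicate 2. Of 20 homeostatic microglia genes, 19 lay below 0 and 4 fell (20%, against 6.71% of all genes tested). Csf1r had 77.8, 79.4 and 85.8 CPM in CIE+IL17 Ab and 97.8, 113 and 103 CPM in Air+IgG, P2ry12, a purinergic receptor, had 29, 26.9 and 26.5 against 35.4, 44 and 39.97 CPM, and Tmem119, a surface marker of resident microglia, had 15.3, 12.4 and 14.2 against 18, 19.4 and 18.7 CPM. The changes were small, with falls of 0.37, 0.53 and 0.42, and Mertk, a phagocytic receptor, fell by 0.37. The groups did not overlap for Csf1r, P2ry12 and Tmem119, as for all but 2 of the 1990 called genes. When Air+IgG replicate 1, 2 or 3 was omitted, 2, 0 and 0 members fell, and when CIE+IL17 Ab replicate 1, 2 or 3 was omitted, 3, 0 and 4 members fell. Fcgr3, an Fc receptor for IgG, had 6.25, 5.87 and 6.33 against 8.67, 8.47 and 10.3 CPM and did not pass (adjusted p = 0.0509), and 0 of 7 Fc receptor genes passed in edgeR, with 3 at an unadjusted p under 0.05, 2 called by DESeq2 and 1 by limma-voom.

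**Figure D5:**
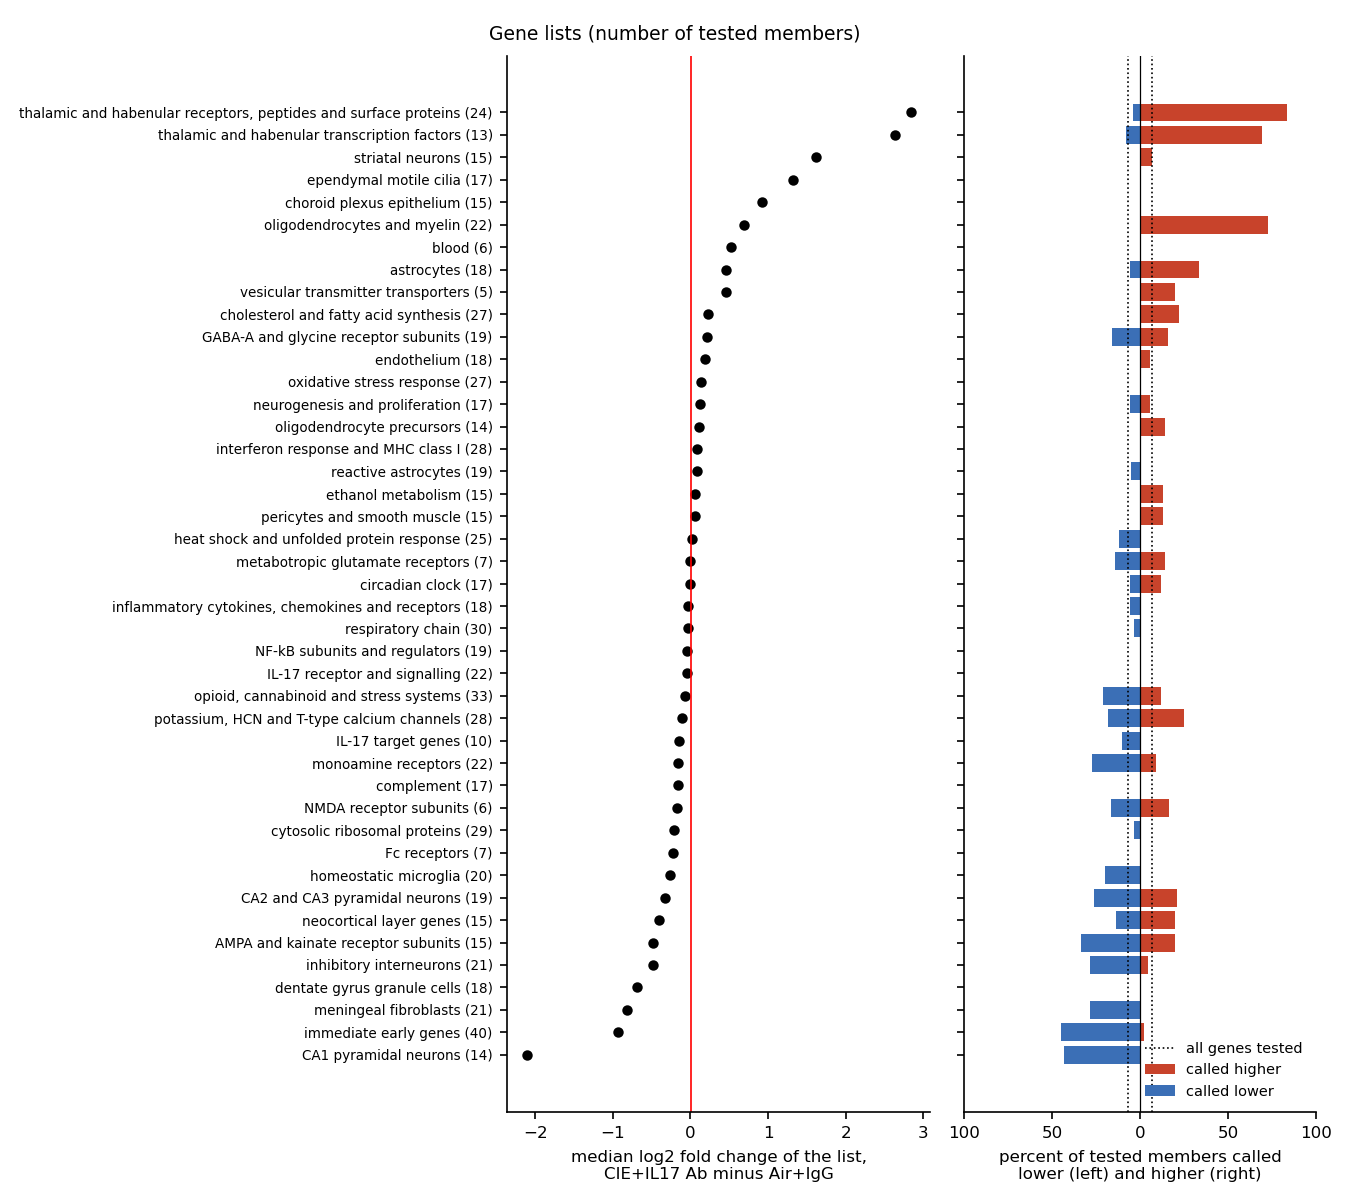
Median log2 fold change (left, CIE+IL17 Ab minus Air+IgG, red line at the median of all genes tested) and percent of tested members that rose or fell (right, dotted lines at 6.83% and 6.71% of all genes tested) for 43 gene lists. The thalamic and habenular lists have the highest medians, 2.84 and 2.64, and the CA1 list the lowest, -2.11.

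Genes of tissues bordering the hippocampus varied by library. The 15 choroid plexus genes all lay above 0 with a median log2 fold change of 0.92, yet 0 passed in edgeR or limma-voom and 1 in DESeq2, and 1 had an unadjusted p under 0.05. Ttr, transthyretin, had 24.3, 6410.3 and 5144 CPM in CIE+IL17 Ab and 3305, 427 and 2115 CPM in Air+IgG, so replicate 1 of CIE+IL17 Ab was the lowest of the 6 and replicates 2 and 3 the highest. The 17 ependymal cilia genes had a median of 1.33; 0 passed in edgeR or limma-voom and 7 in DESeq2, 9 had an unadjusted p under 0.05, and 8 rose in edgeR without CIE+IL17 Ab replicate 1. All 15 striatal genes lay above 0 with a median of 1.62, which was 0.34 without CIE+IL17 Ab replicate 3. In CIE+IgG against the same controls, the choroid plexus, ependymal and striatal medians were 1.002, 0.874 and 1.708, with no call. The shifts of these lists were thus not particular to CIE+IL17 Ab. The striatal genes summed to 302, 299 and 1501 CPM in CIE+IgG replicates 1, 2 and 3. Six3 was the striatal member that rose, 5.7, 6.18 and 6.01 against 0.65, 0.403 and 1.14 CPM, and Drd2, the D2 dopamine receptor, had 15.7, 6.5 and 17.5 against 1.63, 1.34 and 2.27 CPM and did not pass (adjusted p = 0.113). The Six3 call was kept in 2 of the fits that left out 1 library and lost in every one that left out an Air+IgG or CIE+IL17 Ab library. The adjusted p was highest at 0.122 without Air+IgG replicate 2. Of 21 meningeal fibroblast genes, 6 fell (28.6%, against 6.71% of all genes tested). The median log2 fold change of this list was -0.822, and in CIE+IgG it was -0.808 against the same controls. Ptgds, prostaglandin D synthase, had 316, 354 and 292 CPM in CIE+IL17 Ab, 441, 893 and 522 CPM in Air+IgG and 209, 147 and 231 CPM in CIE+IgG, the lowest of the 3 groups. Its fall of 0.95 shrank to a log2 fold change of -0.60 (adjusted p = 0.107) without Air+IgG replicate 2, a Lars2-rich library in which the meningeal marker sum was 948 CPM. Omitting Air+IgG replicate 1, 2 or 3 in the fit gave a list in which 1, 0 and 0 members fell, and omitting CIE+IL17 Ab replicate 1, 2 or 3 a list in which 2, 0 and 3 members fell.

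Of 15 ethanol metabolism genes, 2 rose and 0 fell (13.3% called). Among all genes tested, 13.5% were called and 6.83% were called higher. Aldh9a1, an aldehyde dehydrogenase, had 29.9, 36.8 and 34.8 CPM in CIE+IL17 Ab and 22.1, 17.1 and 19.4 CPM in Air+IgG, and Cat, catalase, had 63, 66.5 and 68.7 against 52.5, 55.5 and 49.2 CPM. Both were above the Air+IgG range in every CIE+IL17 Ab library, with log2 fold changes of 0.79 (SE 0.15, adjusted p = 0.0153) and 0.33 (SE 0.089, adjusted p = 0.040). Aldh2, the mitochondrial enzyme that clears acetaldehyde, had a log2 fold change of 0.22 (adjusted p = 0.428). With Air+IgG replicate 1, 2 or 3 left out, 1, 0 and 0 members rose, and with CIE+IL17 Ab replicate 1, 2 or 3 left out, 2, 0 and 1 members rose. Of 27 cholesterol and fatty acid synthesis genes, 24 lay above 0 and 6 rose (22.2%, against 6.83% of all genes tested). Among the 6 were the desaturase genes Scd1 and Scd2, the latter also expressed in oligodendrocytes. Scd1 had 537, 371 and 295 CPM against 200.4, 162 and 193 CPM, and Scd2 had 2689, 2187 and 1932 against 1656, 1563 and 1671 CPM. They rose by 1.11 and 0.48. Of this list, 3, 0 and 0 members rose once Air+IgG replicate 1, 2 or 3 was omitted, and 5, 0 and 8 members rose once CIE+IL17 Ab replicate 1, 2 or 3 was. Of 27 oxidative stress genes, 0 passed in edgeR or limma-voom and 2 in DESeq2, with 7 at an unadjusted p under 0.05. Of 25 heat shock and unfolded protein response genes, 3 fell and 0 rose (12% called), beside 13.5% of all genes tested called and 6.71% called lower. Hspa1a, Atf6 and Calr fell by 0.94, 0.78 and 0.28. When Air+IgG replicate 1, 2 or 3 was omitted, 0, 0 and 0 members fell, and when CIE+IL17 Ab replicate 1, 2 or 3 was omitted, 2, 0 and 5 members fell.

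The genes with the highest mean CPM among the calls were neuronal and glial. Peg3, an imprinted zinc-finger gene, and Snhg11, a neuronal noncoding host gene, rose by 1.0 and 0.66. Syt1, the calcium sensor of synaptic vesicles, had 697, 1026 and 1145 CPM in CIE+IL17 Ab and 1577, 1385 and 1620.4 CPM in Air+IgG. The groups shared no range, Syt1 fell by 0.68, and the spectrin gene Sptan1 and the glycolytic gene Aldoa fell by 0.45 and 0.40.

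Among the largest falls were genes with few counts in CIE+IL17 Ab. Ntn5, a netrin family gene, had 2 counts there and 109 in Air+IgG, a ratio of 59.0 with a 95% exact interval of 15.9 to 493. Krt2, a keratin, had 3 against 109, a ratio of 39.3 (13.1 to 194). Akr1c18, a steroid-metabolizing reductase, had 2 against 66, a ratio of 35.7 (9.5 to 301). All 3 were lower in every CIE+IL17 Ab library, and the intervals cover counting error only. Abhd12b was the reverse case, with 546 counts in CIE+IL17 Ab and 2 in Air+IgG, a ratio of 252 (69.5 to 2090). Its CIE+IL17 Ab libraries were uneven, 2.08, 31.6 and 13.4 CPM, and the call was lost without any 1 Air+IgG library and without CIE+IL17 Ab replicate 2 (adjusted p = 0.0995 to 0.113). Rspo2, a secreted activator of Wnt signalling, fell by 3.73, with 0.973, 0.47 and 2.53 CPM against 18.6, 9.14 and 23.7 CPM, and kept its call without each library except Air+IgG replicate 3.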

How the data were processed

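Polyadenylated RNA of mouse hippocampus was sequenced in 9 libraries, 3 a group. The deposited values are RSEM estimated counts per gene; per the submitters' processing notes, STAR 2.5.1a, RSEM 1.3.0 and GRCm38 were used, and 27.1% of the values had decimals. The sources used here do not give the annotation or any filter of the authors, and the labels give no depth beyond these counts. Estimated counts were rounded, filtered with filterByExpr (minimum count 10; 14696 of 14779 genes kept) and scaled by TMM, and edgeR 4.0.16 (R 4.3.3) quasi-likelihood tests were fitted to all 9 libraries (6 residual degrees of freedom), with Benjamini-Hochberg adjustment and a threshold of 0.05. Log2 fold changes carry the standard error of the fit, written SE, and levels are CPM. P-values measure the spread between these libraries. No pair of the 6 libraries agreed within sampling noise (lowest chi-square per degree of freedom 4.05). Coordinates are from GENCODE M21, and 14628 identifiers had a symbol.

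The genes named are a part of those chosen by rule: the 10 largest rises and falls whose groups do not overlap and whose higher group averages at least 2 CPM, up to 3 called members of each of 43 gene lists with the smallest p (or the best member where none was called), fixed genes and the 5 most abundant calls in each direction. Others were named to complete a list's counts, after their values were seen. Members and lists were chosen with earlier results of these data known. Alternatives were DESeq2 1.42.0 and its size factors, limma-voom (limma 3.58.1), other filters, fits of fewer libraries, a replicate block and a label number term. Some genes are not reported here.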

Additional observations from a re-analysis of the deposited data

Results flagged for a closer look

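CIE+IgG replicate 3 entered the contrast of CIE+IL17 Ab and Air+IgG only through the spread of the fit. The following marker sums of it lay outside the Air+IgG range. Its thalamus and habenula markers summed to 220 CPM, against at most 107 CPM in Air+IgG. Its striatum markers summed to 599 CPM, against at most 92.2 CPM. Its ependyma markers summed to 72.2 CPM, against at most 31.5 CPM. Its choroid plexus markers summed to 5486 CPM, against at most 3645 CPM. Its oligodendrocyte markers summed to 5074 CPM, against at most 3231 CPM in Air+IgG and 4381 to 5295 CPM in CIE+IL17 Ab. Its hippocampal markers summed to 818 CPM, against at least 1213 CPM in Air+IgG and 203 to 753 CPM in CIE+IL17 Ab. Its meningeal markers summed to 271.5 CPM, against at least 481.5 CPM in Air+IgG. Some of these were not particular to replicate 3. The meningeal sum was 234 and 163 CPM in CIE+IgG replicates 1 and 2, also below Air+IgG. Their oligodendrocyte sums were 3281 and 3849 CPM, also above it. The choroid plexus, ependyma and thalamus and habenula sums of replicate 1 were 4856, 50.7 and 133 CPM, also above it, and those of replicate 2 lay within its range. The striatum and hippocampal sums of replicates 1 and 2 lay within the Air+IgG range. None of these differences was tested.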

How the results depend on the processing

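The 1990 calls became 1192 when the 6 libraries were fitted alone, 571 with a replicate block, 2 with label numbers 54 to 60 only, 1067 without both Lars2-rich libraries (chosen after seeing the data) and 31 at an adjusted p under 0.01. Leaving out 1 library at a time gave 0 to 2305 calls. With DESeq2 size factors, DESeq2, limma-voom, no filter, a stricter filter and a label number term, there were 1995, 2799, 2094, 1986, 1949 and 2199. The cause was not tested. The deviations of same-numbered libraries from their group means correlated at -0.212, -0.265 and -0.152. Those of differently numbered libraries correlated at 0.0427 to 0.289. Deviations within a group of 3 sum to 0, so these values cannot settle whether the numbers mark pairs. Signs turned for genes that were not called. In limma-voom, Cldn5 stood at 0.022 (from -0.045) and Ttr at -0.68 (from 0.99). Without both Lars2-rich libraries, Nr3c1, Kcnma1, Prox1, Aif1 and Cldn5 stood at 0.12, 0.052, 0.34, 0.024 and 0.20. Over the fits that left out 1 library, Cldn5 ran from -0.188 to 0.21, Nr3c1 from -0.158 to 0.093, Kcnma1 from -0.187 to 0.11 and Lars2 from -9.40 to 7.56, and Lars2 was 0.37 and 0.38 once CIE+IL17 Ab replicate 2 or 3 was left out. Called values of the genes chosen by rule that moved by over 1.5 times were, without CIE+IL17 Ab replicate 3, Akr1c18 (-7.55 from -4.92), Itprid1 (-7.95 from -3.68), Ptgs2 (-3.51 from -2.22) and Slc9a4 (-5.88 from -3.64), without Air+IgG replicate 2, Ptgds (-0.60), and, without both Lars2-rich libraries, Islr (-0.48 from -0.87), Ptgds (-0.58 from -0.95) and Scd2 (0.31 from 0.48). Genes with a few counts a library are limited by depth.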

Other observations

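The remaining gene lists are given beside the 13.5% of all genes tested that were called. Of 15 neocortical layer genes, 3 rose and 2 fell (33.3%), with Rorb, a nuclear receptor of layer 4 and thalamic neurons, at 129.5, 158 and 119 CPM in CIE+IL17 Ab and 55.1, 54.5 and 63.7 CPM in Air+IgG. Of 5 vesicular transporters (20% called) Slc17a6 alone rose in edgeR, while Slc17a7, the VGLUT1 gene of cortical and hippocampal neurons, had a log2 fold change of -2.32 (adjusted p = 0.078). Of 17 neurogenesis and proliferation genes, Calb2 rose and Neurod1 fell by 1.15 (11.8% called). Of 18 endothelial genes, Slc2a1, the glucose transporter GLUT1, rose by 0.50 (5.56% called), and of 15 pericyte and smooth muscle genes, Kcnj8 and Abcc9, which form a potassium channel, rose by 0.91 and 0.58 (13.3% called). Of 17 circadian clock genes, Cry1 and Rorb rose and Arntl fell (17.6% called). Cox6a1 was the respiratory chain gene of 30 that changed, and it fell by 0.38 (3.33% called). Of 29 cytosolic ribosomal protein genes, 28 lay below 0 and Rplp1 fell by 0.37, with a list median of -0.21 (3.45% called). Of 6 blood genes, 0 passed in edgeR, DESeq2 or limma-voom, with 0 at an unadjusted p under 0.05. Without Air+IgG replicate 3 none of these was called in edgeR.

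By gene class, 988 and 976 of 14324 protein-coding genes rose and fell (13.7% called), and 7 and 2 of 103 long noncoding RNA genes did (8.74%).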
